A study of Ginkgo biloba with 9 samples.

Results

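The genes described here were higher in leaves of Ginkgo biloba at the highest planting density than at either lower density. On the scale used for the selection, the lower densities lay close to each other. These genes number 113 of the 41309 gene identifiers in the table of expression values, and 113 of the 19692 that passed the filters of the selection. Leaves came from 2-year-old trees of the cultivar Fozhi in a nursery for leaf harvest, planted at 20 (CK, the control), 40 (MD, moderate) or 80 (HD, high) plants per square metre, with 3 RNA-seq libraries at each density. The study asked how density affects leaf yield and the active compounds of the leaf. No label says whether the libraries of a density were separate trees or a shared pool, so the spread between them may be technical. All trees shared the cultivar and the age, and density cannot be told apart from anything else that differed between the plantings.

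Ginkgo is a gymnosperm tree whose leaves are harvested for flavonoids and terpene trilactones. In crowded stands plants shade each other and share water and nutrients. Leaves of seed plants are known to answer shade through phytochrome photoreceptors, which sense the ratio of red to far-red light. Whether any of the 113 genes belongs to such a pathway cannot be said here, because the identifiers in the table stand without names. For the same reason the leaf label was not checked against marker genes, and lists of genes for photosynthesis, light signalling, flavonoids, terpenoids, hormones, cell wall, lignin, stress and transport were not matched. In whole leaves, more cells of a type and more RNA per cell cannot be told apart.

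The members were selected on FPKM, the number of sequenced fragments divided by gene length and library size. A gene entered when it reached an FPKM of 1 in at least 3 of the 9 libraries, had a mean under 1000 FPKM and was above 0 in at least 1 library of each density. On group means of log2(FPKM + 1), HD had to exceed CK and MD by at least 1 each, and MD had to lie less than 0.4 from CK in either direction. All 3 HD libraries also had to lie above all 6 others. All 9 libraries and all 3 comparisons of densities were thus used, and the differences below are a description without a test. Of the 113 genes, 31 reached an FPKM of 1 in HD libraries only, so they passed the filter through the density in which they are high.

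The median of the members' mean FPKM was 2.26 at CK and 2.20 at MD, and it was 7.92 at HD. By library, the median over members was 2.21, 2.22 and 2.41 FPKM in CK, 1.89, 2.17 and 2.18 in MD, and 8.17, 8.36 and 8.02 in HD. By this median the 3 HD libraries were alike, and the 6 others were alike. The rule holds MD near CK, so nothing is read from the likeness of the 6. The median also hides the spread of single members, whose HD libraries lay up to 2.31 times apart. The median difference was 1.38 on the log2(FPKM + 1) scale for HD minus CK and 1.32 for HD minus MD, against 0.00323 and 0.00506 over all 19854 tested genes. Members ranged from 1.01 to 2.40 above CK and from 1.01 to 2.72 above MD. The median standard error of a member's difference was 0.143 in a limma fit to all 9 libraries.

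**Figure D1:**
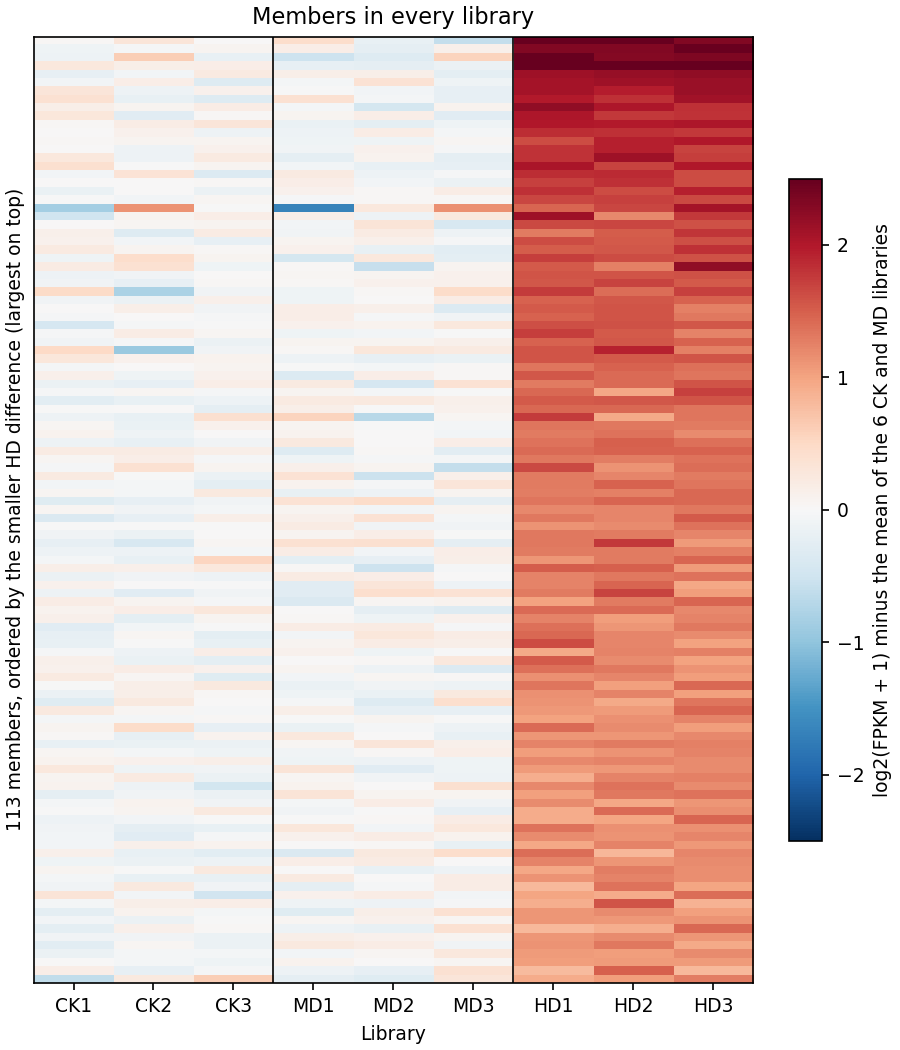
Each row is 1 of the 113 genes and each column a library; colour gives log2(FPKM + 1) minus the mean of the 6 CK and MD libraries of that gene. The 3 HD columns are red in every row, and the 6 other columns are mostly near 0.

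All 113 genes were called higher in HD than in CK by limma (Benjamini-Hochberg adjusted p under 0.05), where 25.4% of tested genes were so called, and all 113 higher in HD than in MD, against 20.4%. HD was called above both in 14% of tested genes, and its libraries lay above all 6 others in 17.9%. Between MD and CK, 17 members were called, against 36.7% of tested genes, with 11 higher in MD (18% of tested genes) and 6 lower (18.6%). The rule used these same comparisons, so nothing is read from the members' counts. On the linear scale, mean FPKM in HD was 2.13 to 40.3 times that in CK, with a median of 3.79, and 2.03 to 81.8 times that in MD, with a median of 3.54. In 45 members HD was at least 4 times both.

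**Figure D2:**
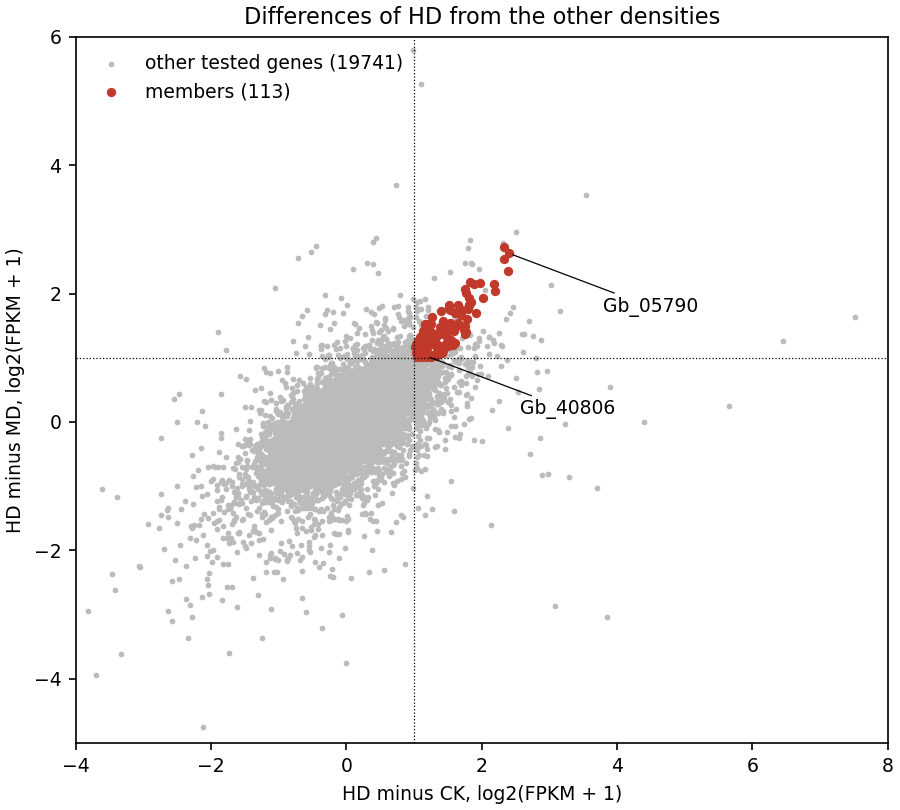
Each point is a tested gene, with HD minus CK on the horizontal and HD minus MD on the vertical axis, both in log2(FPKM + 1); the 113 members are red. Members fill the corner above 1 on both axes close to the diagonal, where the rule placed them, and grey points in that corner are genes in which MD and CK differed, in which groups overlapped, or which the filters left out.

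Gb_05790 had the largest rise among the members, taking for each gene the smaller of its differences from CK and MD. Its level was 4.58, 5.67 and 4.46 FPKM in CK, 6.40, 3.8 and 2.58 in MD, and 32.1, 32.6 and 25.9 in HD. The lowest HD library stood 4.05 times above the highest of the others, and the MD libraries spread on both sides of the CK libraries. The mean was 4.91 ± 0.666 FPKM at CK and 4.26 ± 1.95 at MD, and 30.2 ± 3.71 at HD (SD, n = 3). HD exceeded CK by 2.40 and MD by 2.63 on the log2(FPKM + 1) scale (SE 0.215 for both). Read numbers and gene lengths could be worked out from the FPKM, since the values of a gene are whole multiples of what 1 read is worth, and the libraries held 14698208 to 22436354 reads in genes. Gb_05790 is short, with a length of 234 nt, and its reads numbered 70 in CK, 50 in MD and 383 in HD over 3 libraries each. Ratios of reads, here and below, are adjusted for the library sizes used in the FPKM, so they differ from the plain ratios of the read numbers. By reads, HD was 6.16 times CK (exact binomial 95% interval 4.77 to 8.07) and 7.33 times MD (5.45 to 10.1), intervals that cover counting error only. By mean level Gb_05790 ranked 13547 of the 19854 tested genes in CK, 14370 in MD and 4986 in HD.

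Gb_40806 was the most abundant member at HD. It stood at 154, 146 and 162 FPKM in CK, 168, 175 and 168 in MD, and 351, 343 and 352 in HD. The HD libraries lay within a narrow band far above the rest, and every MD library was above every CK library. The mean was 154 ± 7.90 FPKM at CK and 171 ± 3.79 at MD, and 349 ± 5.20 at HD (SD, n = 3), with HD above CK by 1.18 and above MD by 1.03 on the log2(FPKM + 1) scale (SE 0.039 for both). Reads numbered 7216 in CK, 6819 in MD and 14523 in HD. Adjusted for library size, HD was 2.27 times CK (exact 95% interval 2.20 to 2.33) and 2.04 times MD (1.98 to 2.10). Its rank moved from 1025 in CK and 884 in MD to 366 in HD, with rank 1 the most abundant gene. What either gene encodes was not looked up, for want of a table of names.

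**Figure D3:**
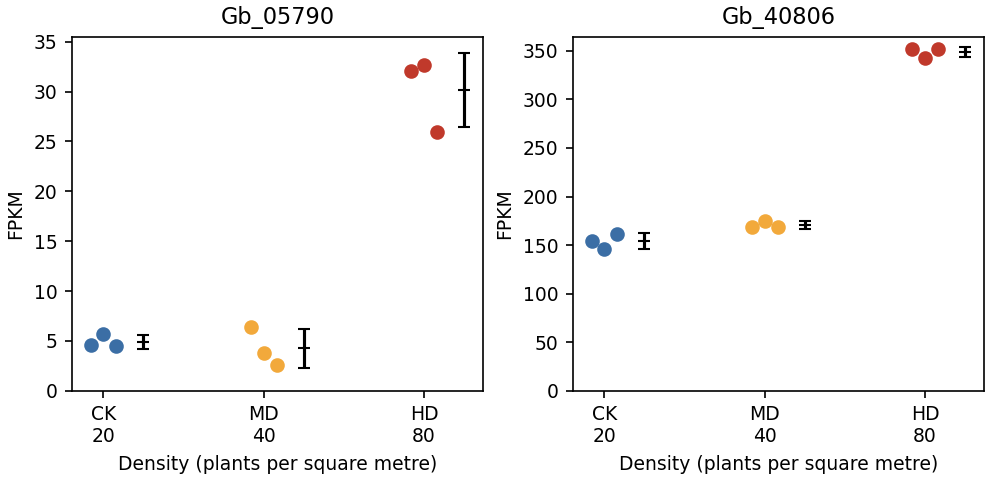
FPKM of Gb_05790 and Gb_40806 in each library by density (20, 40 and 80 plants per square metre); points are libraries, and black bars are the mean and SD of 3. All HD points lie above all others in both panels, by a factor of at least 4.05 in Gb_05790 and 1.96 in Gb_40806.

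Members differed widely in level. At HD, 8 had a mean of 100 FPKM or more, 22 lay from 20 to 100, 38 from 5 to 20 and 45 below 5. For comparison, 6 of the 113 members and 1549 of the 19854 tested genes had a 9-library mean of 100 to 1000 FPKM. Among the 8 most abundant, HD was 2.13 to 3.40 times CK and 2.03 to 3.24 times MD, and the libraries of a density agreed closely, with a median coefficient of variation of 5.13% in CK, 2.46% in MD and 1.81% in HD. The third most abundant member had 89.1, 91.7 and 98.4 FPKM in CK, 101, 103 and 105 in MD, and 294, 295 and 296 in HD. Its HD libraries lay within 1.01 times of each other, the tightest of all members, and 2.80 times or more above every other library.

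Ratios of 4 or more were found among members of intermediate level. Of the 22 members from 20 to 100 FPKM at HD, 4 were at least 4 times CK and 5 at least 4 times MD. On the log2(FPKM + 1) scale their median difference from CK was 1.51, against 1.21 in the 8 most abundant members. From MD the medians were nearly equal, at 1.35 and 1.34. The most abundant of the 22 stood at 17.9, 16.4 and 16.5 FPKM in CK, 12.6, 12.3 and 13.1 in MD, and 87.3, 89.1 and 90.9 in HD. Here all MD libraries were below all CK libraries, and HD was 5.26 times CK and 7.02 times MD. Another of the 22 had nearly the same level at both lower densities, with 5.62, 5.98 and 6.43 FPKM in CK, 6.95, 5.04 and 6.76 in MD, and 34.3, 34.3 and 38.1 in HD. The 38 members from 5 to 20 FPKM had a median ratio of 3.31 to CK and 3.27 to MD, at levels where the rule asks for a larger ratio. One of them had 1.41, 1.81 and 1.01 FPKM in CK, 1.45, 2.25 and 1.34 in MD, and 9.66, 9.87 and 10.2 in HD, with CK and MD intermingled and HD far above.

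A group of 35 members had a mean under 1 FPKM in both CK and MD, a subset drawn after the values were seen. Their HD means ran from 1.47 to 3.91 FPKM. Their reads, not adjusted for library size, summed to 575 in CK, 433 in MD and 4469 in HD. HD was a median of 7.47 times CK and 6.85 times MD in this subset, against 3.16 and 3.03 times in the other 78 members. On the log2(FPKM + 1) scale the order turned, with a median difference from CK of 1.29 in the 35 and 1.41 in the 78, because the added 1 weighs most on low values. The rule itself asks for a larger ratio where the level is low, so the ratios of the subset are no separate observation.

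**Figure D4:**
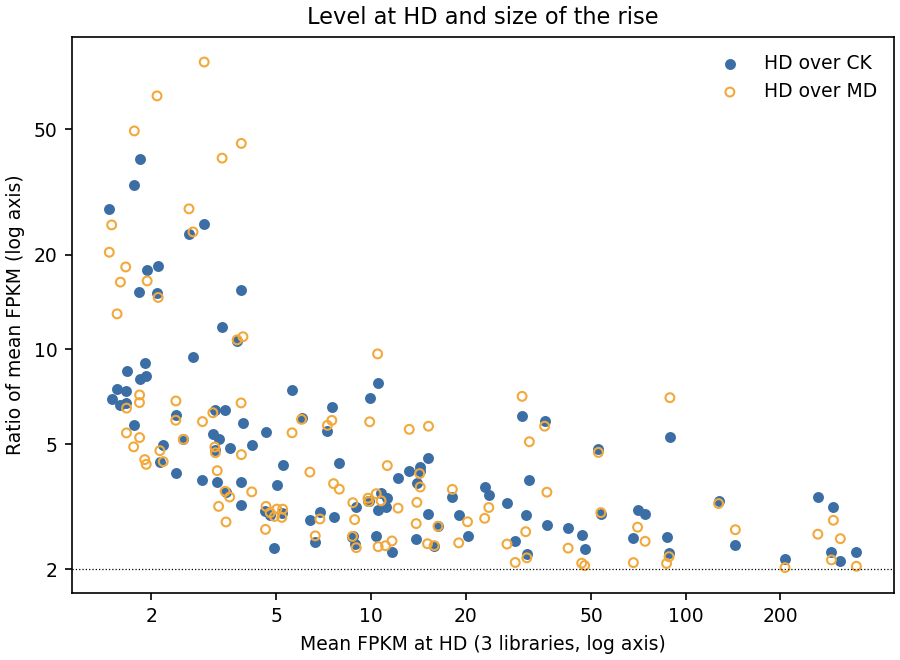
For each of the 113 members, the ratio of mean FPKM in HD to CK (filled) and to MD (open) is plotted against its mean FPKM at HD, both on log axes; the dotted line marks a ratio of 2. Ratios above 10 occur only below 5 FPKM, and the 8 members at 100 FPKM or more lie between 2.03 and 3.40.

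In 10 members HD was at least 10 times both CK and MD, and all 10 belonged to the low subset. They held 3 to 20 reads over the 3 CK libraries, 2 to 14 over the MD libraries and 74 to 379 over the HD libraries. The best covered of them had 1, 4 and 8 reads in CK, 2, 1 and 4 in MD, and 123, 145 and 111 in HD, on a length of 3978 nt. By reads adjusted for library size its HD level was 32.8 times CK (exact 95% interval 19.0 to 62.2) and 51.8 times MD (24.9 to 130). The largest ratio to MD in the whole set was in a gene with 2, 3 and 3 reads in CK, 0, 0 and 2 in MD, and 49, 67 and 60 in HD. Its read ratio to MD was 84.2, but with an interval of 23.0 to 701, so its size is poorly known. The largest ratio of mean FPKM to CK, 40.3, rested on 2 CK reads, and its read ratio of 37.7 had an interval of 10 to 318. Between libraries of the same density the median squared difference in reads was 2.09 to 2.59 times the Poisson value, so such intervals may be too narrow.

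The members varied in how far HD stood clear of the other libraries. The lowest HD library was a median of 2.47 times the highest CK or MD library, from 1.27 to 17.6 times. In 82 members this gap was at least 2-fold, in 20 at least 4-fold, and in 2 it was below 1.5-fold. Among the HD libraries themselves, the highest was a median of 1.21 times the lowest. They lay within 1.5 times of each other in 92 members and more than 2 times apart in 6. A coefficient of variation above 30% at HD occurred in 10 members, of which 9 were below 5 FPKM there. HD1 was the highest of the 3 HD libraries in 30 members, HD2 in 40 and HD3 in 43. All 3 lay above the other libraries in every member because the rule demanded it.

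Between the lower densities, MD was above CK in 64 members and below it in 49. The median difference was 0.03 on the log2(FPKM + 1) scale, with a range from -0.39 to 0.39, as the rule demands. The added 1 shrinks differences between low values. With 0.1 added in its place, 37 of the 113 members had MD 0.4 or more from CK. In 82 of the 113 members the CK and MD libraries overlapped, which they did in 51.4% of tested genes. The limit of 0.4 on the difference of MD from CK favours overlap, so nothing is read from this. In the other members, all MD libraries were above all CK libraries in 19 and below them in 12. The share of tested genes in each direction was not worked out, so no lean toward either density is read from these 2 counts. An FPKM of 0 was listed for 21 of 1017 values, in 16 members. None of these values could be in an HD library, since the rule sets each HD library above all CK and MD libraries. At least 1 MD library was at 0 in 14 members and at least 1 CK library in 2. These counts are not adjusted for depth, which was 14698208 to 20199227 reads in MD libraries and 19194170 to 22436354 in CK libraries.

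Summed over the 113 genes, the level was 1281, 1259 and 1305 FPKM in CK, 1337, 1356 and 1363 in MD, and 3504, 3551 and 3593 in HD. The means were 1282 ± 23.2, 1352 ± 13.5 and 3549 ± 44.8 (SD, n = 3), so HD was 2.77 times CK and 2.63 times MD. The 8 most abundant members made up 1985 ± 32.3 of the 3549 FPKM at HD. Without them the sum of the other 105 was 3.2 times CK and 3.0 times MD. As a share of each library's summed FPKM, the members took 0.115% to 0.121% in CK, 0.123% to 0.126% in MD and 0.352% to 0.359% in HD. Per 1000000 reads, with no division by gene length, the sum was 1215 ± 23.6 at CK and 1301 ± 3.85 at MD, and 3521 ± 21.0 at HD (SD, n = 3).

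By rank of mean level, the median member was 16723 of 19854 in CK, 16967 in MD and 11454 in HD. The 1000 most abundant genes included 0 members in CK, 1 in MD and 6 in HD. Among the 5000 most abundant were 10, 11 and 25 members. The 10000 most abundant held 23 members in CK, 23 in MD and 48 in HD. Most tested genes also lie outside the 5000 most abundant of 19854, so the HD counts alone do not set the members apart. The median level in HD was 7.92 FPKM for members and 10.6 over all tested genes. In CK these medians were 2.26 and 10.5, and in MD 2.20 and 10.6. The median member thus lay below the median tested gene at each density, and came nearest to it in HD.

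Gene length, which the rule did not use, was worked out from the same steps in FPKM that gave the read numbers. Members had a median length of 978 nt (quartiles 602 and 1371), against 1150 nt (639 and 1880) over all tested genes. Lengths of 2000 nt or more occurred in 10 members (8.85%) and in 22.0% of tested genes. In genes with a mean of 1 to 10 FPKM over the 9 libraries these shares were 9.38% of 64 members and 29.0% of 8983 tested genes. From 10 to 100 FPKM they were 4% of 25 members and 18.4% of 8600 tested genes. From 100 to 1000 FPKM the order turned, with 1 of 6 members (16.7%) and 6.52% of 1549 tested genes. Genes in which another density stood apart were also seldom long. With the rule turned to genes lower at HD only, 10% had 2000 nt or more, and in the 4 sets with MD or CK apart the share was 6.38% to 13.3%. A low share of long genes was thus seen in all 6 sets, and no test of a difference was made.

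The same rule was applied with each density in turn as the one apart. Genes lower at HD only numbered 110, close to the 113 higher ones. Genes apart at MD only numbered 82 higher and 45 lower, and at CK only 47 higher and 74 lower. HD was the density apart in 223 genes, against 127 for MD and 121 for CK. Under quantile normalization, upper-quartile scaling and scaling to total reads, HD was apart in 218, 225 and 223 genes, MD in 124, 125 and 121, and CK in 116, 121 and 120. The balance within HD moved under scaling to total reads, to 129 higher and 94 lower genes, of which 110 of the higher ones were members as deposited. That scaling raises the median tested gene by 0.08 in HD against CK and by 0.05 against MD on the log2 scale. No test was made of these counts, since the 6 sets come from the same libraries.

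**Figure D5:**
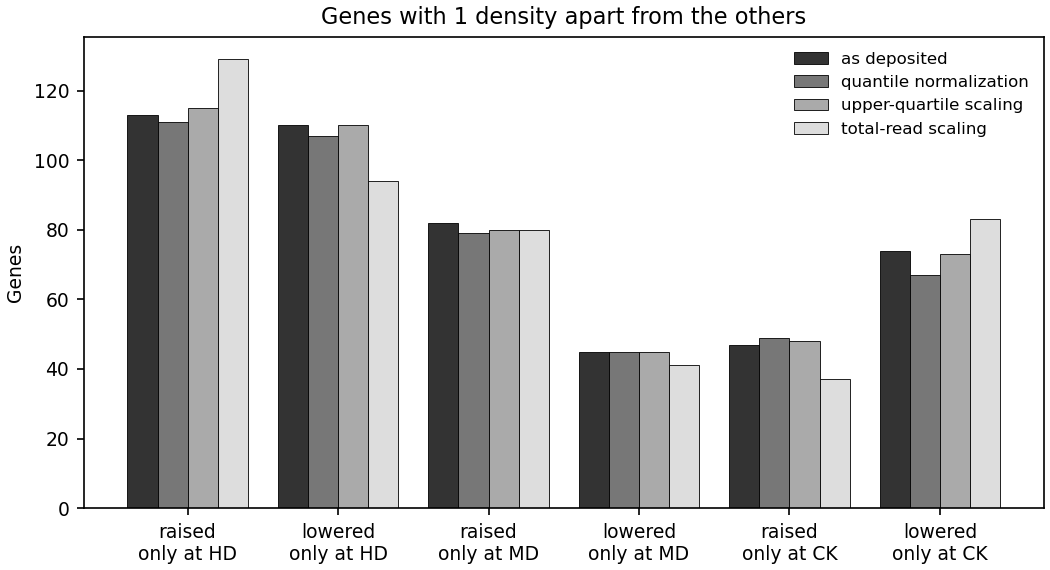
Bars give the number of genes in which 1 density lay at least 1 above or below both others on the log2(FPKM + 1) scale while the others differed by less than 0.4, with 4 scalings of the libraries side by side. The HD bars are the tallest pair as deposited (113 and 110), and under total-read scaling they become 129 and 94.

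The edges of the set were not sharp. The member closest to the limit against CK exceeded it by 1.01, with 0.806, 2.29 and 3.24 FPKM in CK and 4.30, 4.75 and 5.74 in HD, and the gene just outside by 0.99, with 2.15, 1.5 and 1.51 in CK and 4.30, 4.45 and 4.4 in HD. Against MD, the last member stood at 1.01 and the first gene outside at 0.9993. For the distance of MD from CK, the member nearest the limit was the fifth most abundant, with 73.2, 77.6 and 81.1 FPKM in CK, 103, 105 and 97.0 in MD, and 259, 263 and 267 in HD, a difference of 0.39. The first gene outside had a difference of 0.41, with 24.5, 26.0 and 23.4 FPKM in CK, 32.8, 31.8 and 34.3 in MD, and 71.1, 78.0 and 69.7 in HD. Only 1 gene failed on overlap alone, with 1.64, 4.67 and 0.946 FPKM in HD and up to 1.29 in an MD library.

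In all, 177 genes passed the filters with all HD libraries above the 6 others and HD at least 1 above both densities on the log2 scale. The 113 members were those with MD near CK. In 42 of the others MD was above CK by 0.4 or more, and in 22 it was below CK by as much. Another 8 genes met every other criterion but had no reads in any MD library, of which 5 had none in any CK library either. These 8 had 40 to 234 reads over the HD libraries and are not among the members. Counting error alone would let a library listed at 0 have an expected number of up to about 3 reads of a gene.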

How the data were processed

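The authors deposited FPKM as the only unit, in 1 table with a value for each gene in each library, per its file header. CASAVA 1.8, TopHat2 and RSEM are listed in the submitters' processing notes, with no role stated. Genome build and annotation: not given in the sources used here. The 9 value columns each matched a sample title, with 0 left over.

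Reads were worked out from the steps between FPKM values, which are whole multiples of what 1 read is worth for a gene. All 21602 genes above 0 throughout (100%) gave whole reads within 0.001 plus rounding, and of 1890 genes with values moved at random by up to 5%, 0 did. Genes with a 0, including 16 members, were outside this check. Libraries held 14698208 to 22436354 reads in genes. Summed FPKM was 996238 to 1001236 in HD and 1082067 to 1097979 in the others.

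Differences and standard errors came from limma 3.58.1 (R 4.3.3), with a trend of variance on level. The input was log2(FPKM + 1) of the 19854 genes that reached an FPKM of 1 in 3 or more libraries. One model held all 9 libraries, and p-values were adjusted by Benjamini-Hochberg over all tested genes. Both the fit and the recovery of reads were run on simulated data. For the fit only well covered genes were changed, so nothing is read from it about members with few reads. Counts of genes under other filters, pseudocounts, scalings and left-out libraries are given in the closing section. The 2 named genes were taken by rule: the member with the largest smaller difference from CK and MD, and the one with the highest HD mean. The members, the lists and the tests were chosen with earlier results of these data known.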

Additional observations from a re-analysis of the deposited data

How the results depend on the processing

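The number of members followed the limits of the rule. It was 222 with a rise of at least 0.8, 30 with at least 1.5, 69 with MD within 0.2 of CK and 63 with a filter at 5 FPKM. A pseudocount of 0.1 gave 144 genes but shared only 76 with the set. The 37 members lost all failed on the distance of MD from CK, and the 68 gained all had a rise under 1 with the pseudocount of 1. Quantile normalization gave 111 genes (108 shared), upper-quartile scaling 115 (113 shared) and total-read scaling 129 (110 shared). Leaving out single libraries gave 82 to 119 genes, of which 77 to 109 were members. The counts under 100 came without an HD library, where genes above 1 FPKM in HD only fail the filter. Without the libraries numbered 3, chosen after seeing the data, 87 genes passed, 70 of them members. Recovered reads per 1000000, also chosen later, gave 130 genes, 94 shared. The median differences from CK and MD moved to 1.94 and 1.81 with a pseudocount of 0.1, 1.45 and 1.37 under total-read scaling, and 1.44 and 1.41 with the filter at 5 FPKM. Quantile normalization gave 1.36 against CK, and leaving out the libraries numbered 3 gave 1.34 against MD. Single libraries left out gave 1.34 to 1.39 against CK and 1.32 to 1.33 against MD. Counts of called genes over the whole table stayed within 1.5 times in all alternatives run. With the replicate block 10270 genes were called between HD and CK, 8520 between HD and MD and 7307 between MD and CK, where 10324, 8551 and 7277 were called without it. Deviations from group means correlated between -0.007 and 0.073 for equal replicate numbers and between -0.052 and 0.043 for unequal ones. Pairs of libraries numbered 3 had the highest values, from 0.057 to 0.073. All correlations were small, and 5 of 9 libraries were closest to their own number, so the numbers were not treated as pairs. Whether the libraries numbered 3 share an origin was not tested. The 80 alternative fold changes of the 2 named genes all kept their sign, which the choice of members fixes. Depth limits members whose CK and MD levels rest on few reads, among them many below 5 FPKM at HD. Short genes above that level can be as thinly covered. One member of 69 nt, at 9.83 FPKM in HD, had 13 reads in CK, 11 in MD and 36 in HD.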

Other observations

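Weaker forms of the pattern were more frequent. With MD less than 0.4 from CK and all HD libraries above the 6 others, 670 genes had HD at least 0.5 above both on the log2(FPKM + 1) scale, of which 113 are the members with at least 1.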
